A study of Mus musculus with 17 samples.

Results

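The proteasome genes described here were 49 of the 55357 mouse genes in the deposited tables. They were chosen by symbol, as all genes named *Psma* to *Psmg* with a number and with at least 1 protein-coding transcript. The interferon-induced catalytic subunits *Psmb8* and *Psmb9* and the pseudogenes were left out by this rule. By role, the genes comprised 7 subunits of the α ring and 7 of the β ring of the 20S core (3 of the latter catalytic), 3 induced or tissue-restricted core subunits, 6 ATPases and 11 non-ATPase subunits of the 19S particle, 7 assembly chaperones, 5 activators and the inhibitor *Psmf1*. The symbol rule also took *Psme3ip1*, which encodes a partner of the activator PA28γ, and *Psmc3ip*, which encodes a meiotic recombination factor and no proteasome subunit.

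The 26S proteasome degrades proteins that carry ubiquitin chains. Its 20S core is a barrel of stacked α and β rings with the proteolytic sites on the inside, and the 19S particle on its ends binds ubiquitinated proteins, removes the chains and threads the proteins into the core with its ring of ATPases. Dedicated chaperones assemble both parts, and alternative activators can take the place of the 19S particle. In β cells, which fold large amounts of proinsulin, the proteasome also removes misfolded proteins that are retrotranslocated from the endoplasmic reticulum.

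RNA was sequenced from tdTomato+ β cells sorted from islets of male mice on a C57BL/6 background after 72 hours of culture of the islets. Before this culture at 2.8 or 16.7 mM glucose, the islets had recovered for 3 days in medium with a glucose concentration between these values. Control mice, called WT in the labels, carried RIP-Cre and a Cre-inducible tdTomato reporter (termed *tdTomato*). *Pcbp2* βKO mice (RIPCre+;Pcbp2Fl/Fl;Tdtomato) carried in addition conditional alleles of *Pcbp2*, which encodes an RNA-binding protein, so that the Cre driven by the rat insulin promoter both marked the cells and deleted the gene. There were 3 samples of control cells at 2.8 mM glucose and 4 at 16.7 mM, and 5 samples of *Pcbp2* βKO cells at each concentration. Neither the labels nor the methods say whether the samples of a group came from separate animals, so p values measure the spread between samples, which may be technical, and the study's batches are not named in the labels.

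Total estimated counts ranged from 47385513 to 82419400 per sample. *Pcbp2* was at 50.7 to 73.4 CPM (counts scaled to library size, corrected with TMM factors) in control cells at 2.8 mM against 15.5 to 19.2 in *Pcbp2* βKO cells, and at 35.0 to 45.4 against 5.81 to 10.03 at 16.7 mM, so that each sample matched its genotype label. At 16.7 mM, control replicate 4 had a TMM factor of 1.01 against 0.752 to 0.860 in the other 3 samples, and *Pcbp2* βKO replicates 4 and 5 had 0.939 and 0.952 against 0.791 to 0.850, and counts without these 3 libraries are given below. The insulin gene *Ins2* took 8.90% to 9.03% of all counts in control cells at 2.8 mM and 18.2% to 25.7% at 16.7 mM, and in *Pcbp2* βKO cells 4.92% to 10.4% and 20.7% to 24.7%. Summed over the 6 acinar markers, levels were at most 23.7 CPM in any sample, with *Cpa1* and *Pnlip* at 0 in all control samples, and the 4 endothelial markers summed to at most 1.15 CPM.

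Levels were first compared between the genes per length, in TPM (transcript abundance scaled to length and to a fixed total per sample, averaged over the 17 samples). The highest level was that of *Psmb6*, a catalytic subunit, at 247 TPM (range 140 to 377), followed by the α subunits *Psma3* at 242 TPM (96.6 to 422) and *Psma7* at 206 TPM (115 to 351), and these 3 ranges overlapped. The order depended on the group, with *Psmb6* at 352 ± 28.2 and *Psma3* at 309 ± 53.5 TPM (SD, n = 3) in control cells at 2.8 mM, and *Psmb6* at 324 ± 26.4 and *Psma3* at 351 ± 52.3 TPM (n = 5) in *Pcbp2* βKO cells, differences within the spread of the samples. *Psmb7*, also catalytic, had the lowest level of the 14 constitutive core subunits, at 40.1 TPM (26.2 to 59.3). Although the core holds its subunits in equal numbers, the highest and the lowest core gene differed by a factor of 5.38 to 7.16 within a sample. These gene sums include transcripts that are not protein-coding. For *Psma3*, protein-coding transcripts held on average 42.6% of counts in control cells at 2.8 mM and 53.8% at 16.7 mM. In *Pcbp2* βKO cells they held 40.1% and 55.8%. The activator *Psme4*, which encodes PA200, was present at 4.34 TPM, and the inhibitor *Psmf1* at 30.3 TPM.

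The 3 lowest members were at or near the detection limit. *Psma8*, the α subunit of the testis proteasome, averaged 0.0166 TPM with 0 to 11 reads per sample and was the 1 member that did not pass the expression filter, which left 48 members among the 22784 genes tested. *Psmb11*, the catalytic subunit of the thymus proteasome, averaged 0.0457 TPM (7 to 26 reads), and *Psme2b*, a copy of the activator subunit gene *Psme2*, averaged 0.593 TPM (13 to 87 reads). Reads may be split between such close copies by the counting. Of the members tested, 41 had over 90% of their counts in protein-coding transcripts on average, and the 5 pseudogenes of core subunits in the tables reached at most 0.208 CPM.

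The comparison of 16.7 mM with 2.8 mM glucose asks how the machinery responds to prolonged high glucose. In control cells, 3 of the 4 core assembly chaperones and 2 of the 3 base assembly chaperones fell, while most subunits of the 20S core changed little on the TMM scale (on the TPM scale, limma called 12 of the 14 lower). Of the 48 members tested, 8 fell and 3 rose (adjusted p under 0.05 and over 1.5-fold). These are 16.7% and 6.25% of the members, against 6.69% and 7.15% of all genes, so the share that rose was under that of all genes. Without the fold limit, 11 fell and 4 rose (22.9% and 8.33%), against 8.15% and 7.78% of all genes. The median log2 fold change was −0.05 for the members and 0.04 for all genes tested. In the fits that left out 1 sample, between 4 and 13 members were called, with the fewest without control replicate 2 at 2.8 mM (4, all lower) and 7 without control replicate 3 at 16.7 mM. *Psmg1*, *Psmg2*, *Psmd9* and *Psmc5* were called lower in each of these 7 fits. Without control replicate 2 at 2.8 mM, adjusted p values of the members that were lost ranged from 0.0501 for *Psma5* to 0.102 for *Psme4*. *Psme4* was lost in 5 and *Psme1* in 4 of the 7 fits.

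In *Pcbp2* βKO cells, the same 3 core assembly chaperones fell and 2 base assembly chaperones again fell. In all, 8 members fell and 2 rose (16.7% and 4.17%), against 10.4% and 13.4% of all genes. Without the fold limit 13 fell and 5 rose (27.1% and 10.4%), against 14.2% and 15.8%. The share of members that rose was thus under that of all genes. The median log2 fold change was −0.10 for the members and 0.01 for all genes. The comparison shares no sample with that in control cells. The 2 may still not be independent, since some same-numbered samples of the genotypes correlated across genes, as given below. In both, 7 members were called (*Psmg1*, *Psmg2*, *Psmg4*, *Psmd9*, *Psmd4*, *Psmd1* and *Psme4*). These are 63.6% of those called in control cells and 70.0% of those called in *Pcbp2* βKO cells. Across the 48 members the log2 fold changes of both genotypes had a Pearson r of 0.86 and the same sign for 40, where all genes tested had an r of 0.68 and the same sign for 77.3%. Without the 3 libraries that stood apart, 12 members were called in control cells (9 lower) and 15 in *Pcbp2* βKO cells (11 lower).

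**Figure D1:**
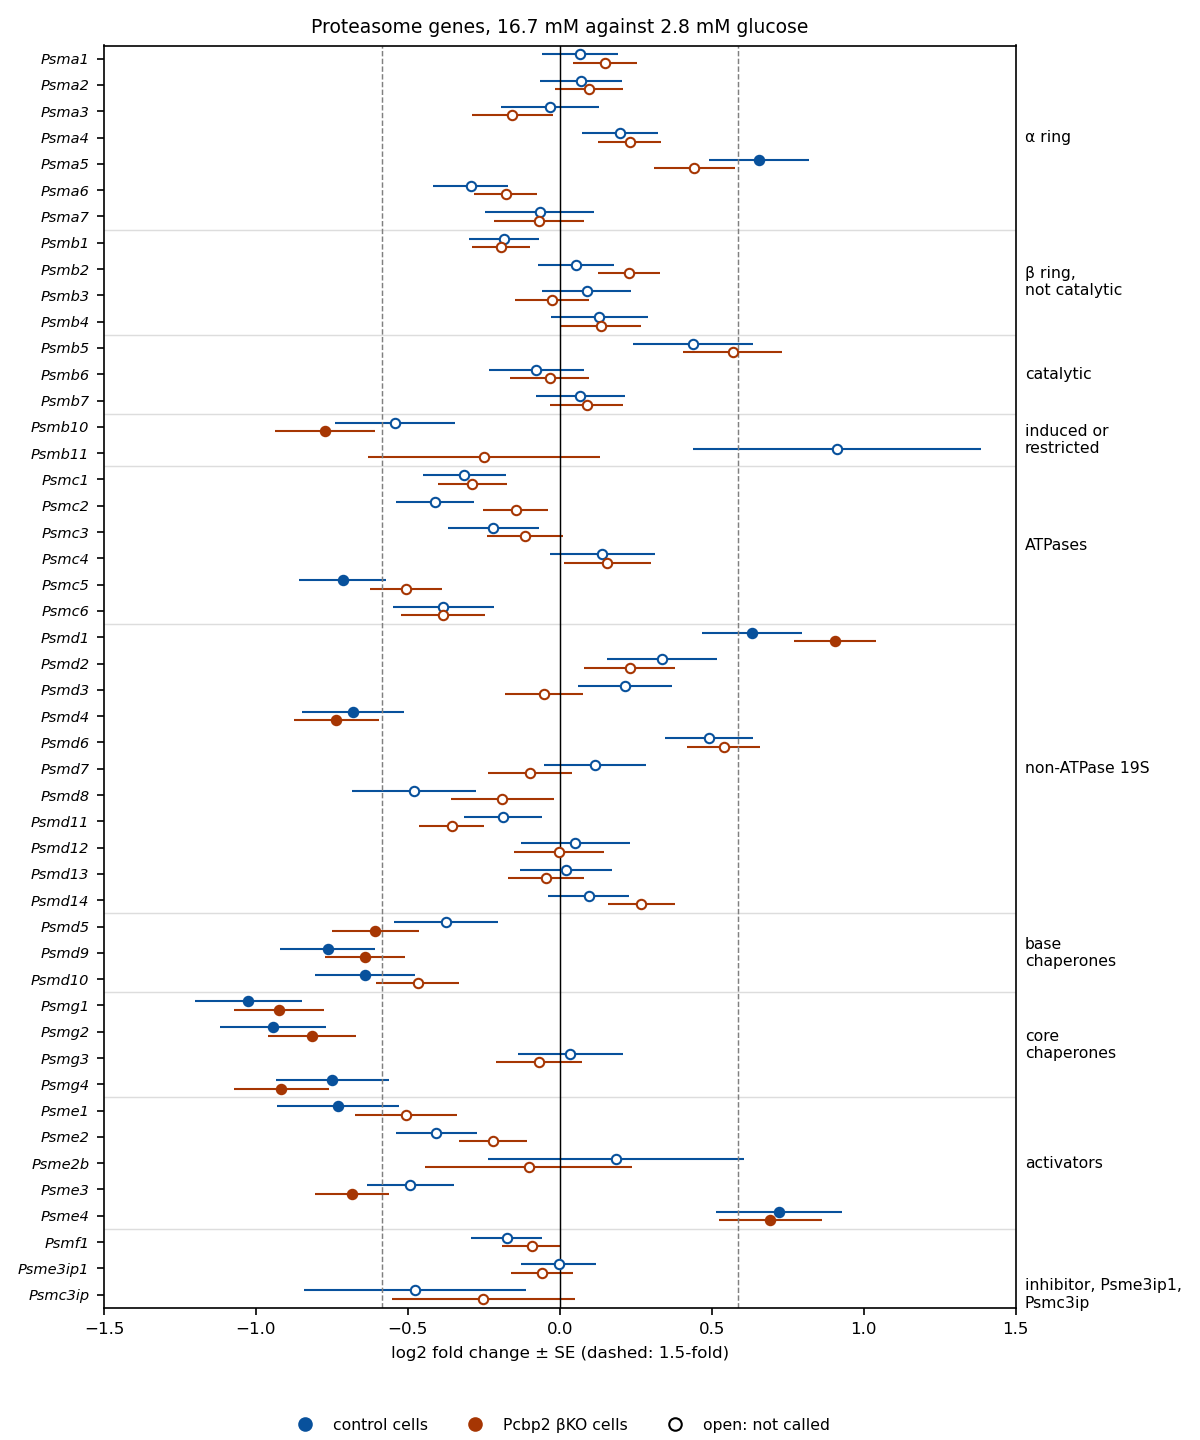
Log2 fold change (x axis, with SE) of the 48 tested proteasome genes at 16.7 mM against 2.8 mM glucose in control cells (blue) and *Pcbp2* βKO cells (brown), by role; filled points passed the test and dashed lines mark 1.5-fold. The assembly chaperones other than *Psmg3* lie to the left in both genotypes, from −0.37 to −1.02, while *Psmd1* and *Psme4* lie to the right on this scale, where TPM give −0.16 and −0.10 for *Psmd1* and 0.00030 and −0.26 for *Psme4*.

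The core assembly chaperones pair off as *Psmg1* with *Psmg2*, which build the α ring, and *Psmg3* with *Psmg4*, which help to order the α subunits. *Psmg1* was at 62.0, 66.7 and 45.1 CPM in control cells at 2.8 mM and at 31.3, 25.5, 21.8 and 35.3 CPM at 16.7 mM. In cells of *Pcbp2* βKO mice it was at 46.5, 54.0, 47.7, 48.9 and 67.0 CPM at 2.8 mM and at 28.4, 23.7, 29.5, 30.1 and 27.4 CPM at 16.7 mM. Every sample at 16.7 mM was thus below every sample at 2.8 mM of its genotype, and the fall was by 1.02 ± 0.18 (SE) on the log2 scale in control cells (adjusted p = 0.0014) and by 0.92 ± 0.15 in *Pcbp2* βKO cells (adjusted p = 0.00017).

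*Psmg2* behaved alike, with 79.5, 95.4 and 64.1 CPM in control cells at 2.8 mM against 37.4, 33.0, 38.0 and 57.2 CPM at 16.7 mM. *Psmg2* in *Pcbp2* βKO cells was at 68.6 to 80.7 CPM at 2.8 mM and at 37.0 to 50.8 CPM at 16.7 mM. The groups did not overlap in either genotype, and *Psmg2* fell by 0.94 ± 0.17 (adjusted p = 0.0021) and by 0.82 ± 0.15 (adjusted p = 0.00042) on the log2 scale. *Psmg4* fell by 0.75 ± 0.19 (adjusted p = 0.011) in control cells, a call lost without replicate 1 or 2 at 2.8 mM (adjusted p = 0.0524 and 0.0829), and by 0.92 ± 0.16 (adjusted p = 0.00029) in *Pcbp2* βKO cells. Its partner *Psmg3* was not called, with a log2 fold change of 0.03 ± 0.17 (adjusted p = 0.93) and −0.07 ± 0.14 (adjusted p = 0.77). The levels of *Psmg3* overlapped, at 15.6 to 20.8 CPM against 13.8 to 25.1 CPM in control cells.

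The base assembly chaperones hold the ATPases while the 19S base forms. *Psmd9* (p27) was at 46.9, 46.8 and 35.5 CPM in control cells at 2.8 mM and at 27.0, 20.8, 22.6 and 31.0 CPM at 16.7 mM. It fell by 0.76 ± 0.16 in control cells (adjusted p = 0.0040) and by 0.64 ± 0.13 in *Pcbp2* βKO cells (adjusted p = 0.0012), with no overlap between the groups. *Psmd10* (gankyrin) fell by 0.64 ± 0.16 in control cells (adjusted p = 0.013) and was at −0.47 ± 0.14 in *Pcbp2* βKO cells (adjusted p = 0.014), under the fold limit. The reverse held for *Psmd5* (S5b), at −0.37 ± 0.17 in control cells (adjusted p = 0.15) and lower by the test in *Pcbp2* βKO cells, where it fell by 0.61 ± 0.14 (adjusted p = 0.0035). *Psmd5* was at 177 CPM in *Pcbp2* βKO replicate 5 at 2.8 mM and at 92.8 to 109 CPM in the other 4, and without that sample its log2 fold change was −0.42, under the fold limit. It was also under that limit without *Pcbp2* βKO replicate 2 or 3 at 16.7 mM (−0.58 and −0.57).

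**Figure D2:**
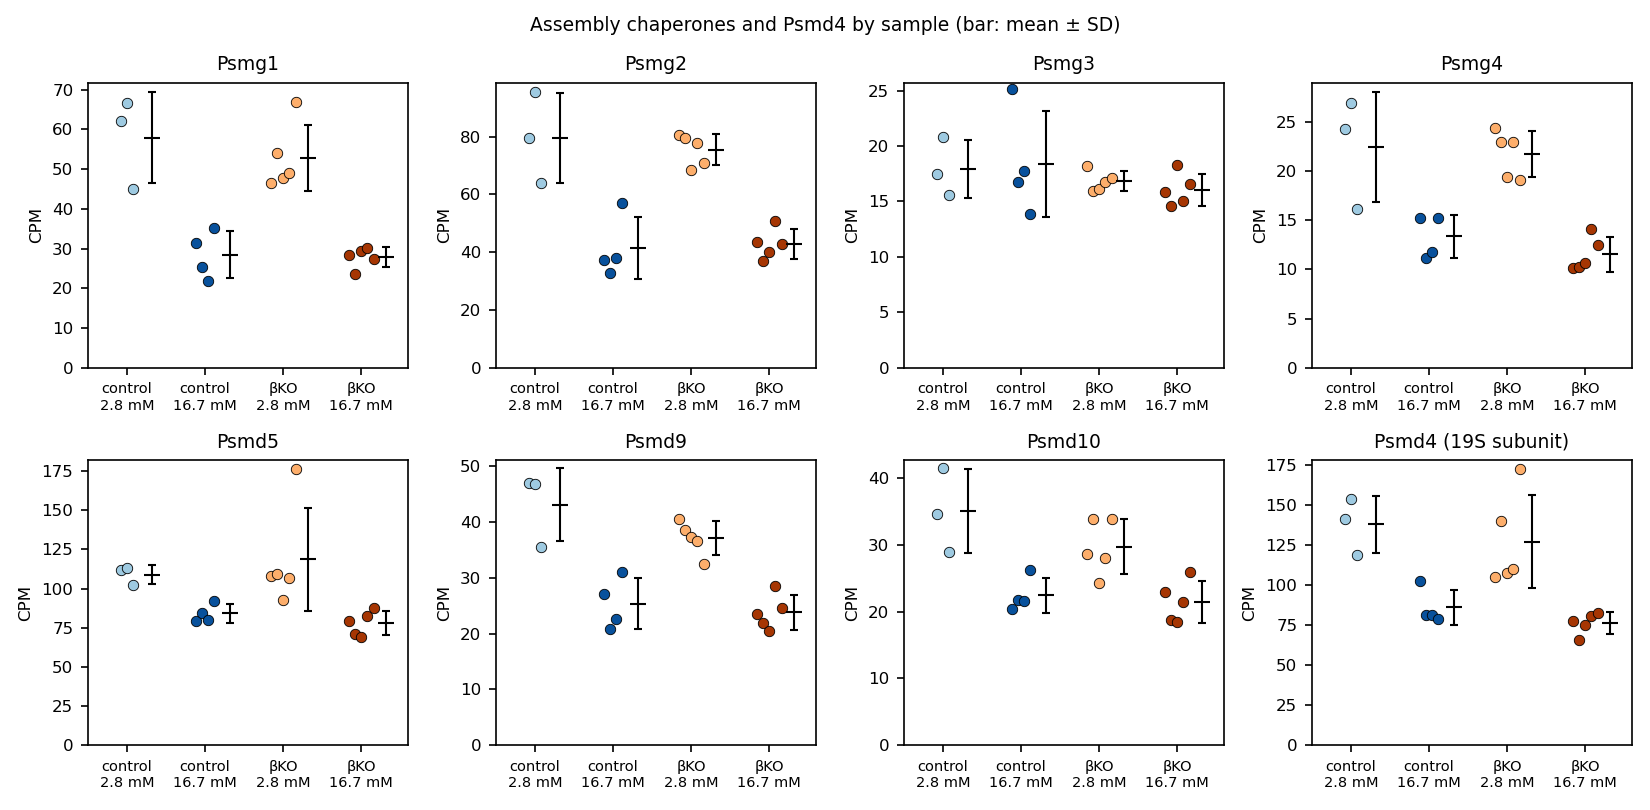
CPM (y axis) of the 7 assembly chaperones and of the 19S ubiquitin receptor *Psmd4* in each sample of the 4 groups, with the mean and SD beside the points. *Psmg1*, *Psmg2* and *Psmd9* are lower in every sample at 16.7 mM than in any at 2.8 mM of the same genotype, while the groups of *Psmg3* overlap.

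The 14 constitutive core subunits moved little on the TMM scale. Their median log2 fold change was 0.07 in control cells and 0.09 in *Pcbp2* βKO cells, and 12 of the 14 were within 0.3 of 0 in each genotype. On the TPM scale, limma called 12 of the 14 lower in each genotype. *Psma5*, an α subunit, rose in control cells by 0.66 ± 0.16 (adjusted p = 0.0115), from 109, 101 and 89.9 CPM to 167, 147, 196 and 118 CPM, but its log2 fold change was −0.17 when TPM were compared. *Psma5* in *Pcbp2* βKO cells was at 0.44 ± 0.13 (adjusted p = 0.017), under the fold limit. The catalytic subunits *Psmb6* and *Psmb7* were at −0.08 ± 0.16 and 0.07 ± 0.14 in control cells and at −0.03 ± 0.13 and 0.09 ± 0.12 in *Pcbp2* βKO cells, and neither was called.

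*Psmb10*, the subunit that replaces *Psmb7* in the immunoproteasome, fell in *Pcbp2* βKO cells by 0.77 ± 0.16 (adjusted p = 0.0017). Its levels there were 22.8, 20.8, 26.0, 26.6 and 24.7 CPM at 2.8 mM and 13.2, 12.8, 13.1, 17.9 and 13.7 CPM at 16.7 mM, without overlap. In control cells *Psmb10* was at 23.0, 20.2 and 16.8 CPM against 18.6, 10.7, 10.3 and 15.3 CPM, and the log2 fold change of −0.54 ± 0.20 was not called (adjusted p = 0.068). *Psmb11* was at 0.91 ± 0.47 and −0.25 ± 0.38 with few reads, and neither was called.

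Of the 6 ATPases of the base, 1 fell in control cells. None was called by edgeR or DESeq2 in *Pcbp2* βKO cells, where 3 had an unadjusted p and 2 an adjusted p under 0.05, while limma on TPM called 6. *Psmc5* (Rpt6) was at 290.0, 329 and 236 CPM in control cells at 2.8 mM and at 188, 142, 170.0 and 194 CPM at 16.7 mM, and it fell by 0.71 ± 0.14 (adjusted p = 0.0035). Its log2 fold change in *Pcbp2* βKO cells was −0.51 ± 0.12 (adjusted p = 0.0036), with 192 to 251 CPM against 142 to 174 CPM. The median of the 6 ATPases was −0.35 in control cells and −0.22 in *Pcbp2* βKO cells.

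Among the 11 non-ATPase subunits of the 19S particle, *Psmd4* and *Psmd1* changed in opposite directions in both genotypes. *Psmd4* (Rpn10), a ubiquitin receptor, was at 141, 154 and 119 CPM in control cells at 2.8 mM and at 103, 81.3, 81.6 and 79.1 CPM at 16.7 mM, and it fell by 0.68 ± 0.17 (adjusted p = 0.011). *Psmd4* in *Pcbp2* βKO cells fell by 0.74 ± 0.14 (adjusted p = 0.00074), with 105 CPM or more at 2.8 mM and at most 82.7 CPM at 16.7 mM. *Psmd1* (Rpn2), a scaffold of the particle, rose on the TMM scale from 165, 123 and 156 CPM to 222, 219.7, 265 and 209.6 CPM in control cells, by 0.63 ± 0.16 (adjusted p = 0.014). With the knockout it rose from 86.8 to 143 CPM at 2.8 mM to 207 to 241 CPM at 16.7 mM, by 0.91 ± 0.13 (adjusted p = 8.7e-05). On the TPM scale the log2 fold change of *Psmd1* was −0.16 and −0.10 and was not called.

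The activators did not move as a group. *Psme1* (PA28α) fell in control cells by 0.73 ± 0.20 (adjusted p = 0.019), although control replicate 4 at 16.7 mM, at 40.2 CPM, overlapped the 39.6 to 53.1 CPM at 2.8 mM, and in *Pcbp2* βKO cells it was at −0.51 ± 0.17 (adjusted p = 0.029). *Psme2* (PA28β), with which it forms a ring, was at −0.41 ± 0.13 (adjusted p = 0.045) and −0.22 ± 0.11 (adjusted p = 0.15), within the fold limit. *Psme3*, the nuclear PA28γ, fell in *Pcbp2* βKO cells by 0.68 ± 0.12 (adjusted p = 0.00038), with 117 to 184 CPM against 84.4 to 94.4 CPM, and was at −0.49 ± 0.14 (adjusted p = 0.0275) in control cells. Without *Pcbp2* βKO replicate 5 at 2.8 mM *Psme3* was at −0.58, just under the fold limit.

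*Psme4* (PA200) rose on the TMM scale from 22.8, 20.3 and 22.5 CPM to 31.9, 41.3, 45.8 and 25.4 CPM in control cells, by 0.72 ± 0.21 (adjusted p = 0.024). *Psme4* in *Pcbp2* βKO cells rose on this scale from 22.8, 15.9, 19.7, 20.7 and 24.9 CPM to 38.8, 32.6, 41.8, 25.8 and 29.2 CPM, by 0.69 ± 0.17 (adjusted p = 0.0046). The lowest of these samples at 16.7 mM were those that stood apart, and on the TPM scale the log2 fold change was 0.00030 in control cells and −0.26 in *Pcbp2* βKO cells. The inhibitor *Psmf1* (PI31) was at −0.17 ± 0.12 (adjusted p = 0.35) and −0.09 ± 0.10 (adjusted p = 0.53). *Psme2b* was at 0.18 ± 0.42 and −0.10 ± 0.34, *Psme3ip1* at −0.0036 ± 0.12 and −0.06 ± 0.10, and *Psmc3ip* at −0.48 ± 0.36 and −0.25 ± 0.30, all uncalled.

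The scaling set how many members were called in the glucose comparisons and the split between directions. With library totals in place of TMM factors, 18 members were called in control cells and 22 in *Pcbp2* βKO cells, all lower, while the median of all genes shifted to −0.35 and −0.47 and that of the members to −0.44 and −0.57. With limma on log2(TPM + 1), 39 and 41 members were called, all lower. The summed TPM of the 14 core subunits went from 2381 ± 127 (SD, n = 3) to 1405 ± 222 (n = 4) in control cells and from 2319 ± 204 to 1161 ± 40.3 (n = 5 each) in *Pcbp2* βKO cells. TPM are parts of a fixed total, of which *Ins2* took 30.0% to 33.5% at 2.8 mM and 53.2% to 55.6% at 16.7 mM in control cells, and 19.5% to 32.7% and 54.8% to 58.9% in *Pcbp2* βKO cells.

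Ratios between members within a sample do not depend on the scaling, and those given here were chosen after the values had been seen and are descriptions. The 4 core assembly chaperones together had 10.5 ± 0.943 TPM per 100 TPM of core subunits in control cells at 2.8 mM (SD, as for the other ratios) and 6.05 ± 1.52 at 16.7 mM. The values were 11.4 ± 0.334 and 6.44 ± 0.949 in *Pcbp2* βKO cells. The base chaperones had 4.80 ± 0.146 and 3.66 ± 0.461 TPM per 100 TPM of 19S subunits in control cells and 5.05 ± 0.217 and 3.49 ± 0.480 in *Pcbp2* βKO cells. In each of these pairs, no sample at 16.7 mM reached the lowest at 2.8 mM. The share of *Psmb10* in the summed TPM of *Psmb7* and *Psmb10* was 33.3% to 37.1% at 2.8 mM and 17.9% to 31.0% at 16.7 mM in control cells, and 35.1% to 44.4% and 21.6% to 33.1% in *Pcbp2* βKO cells.

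**Figure D3:**
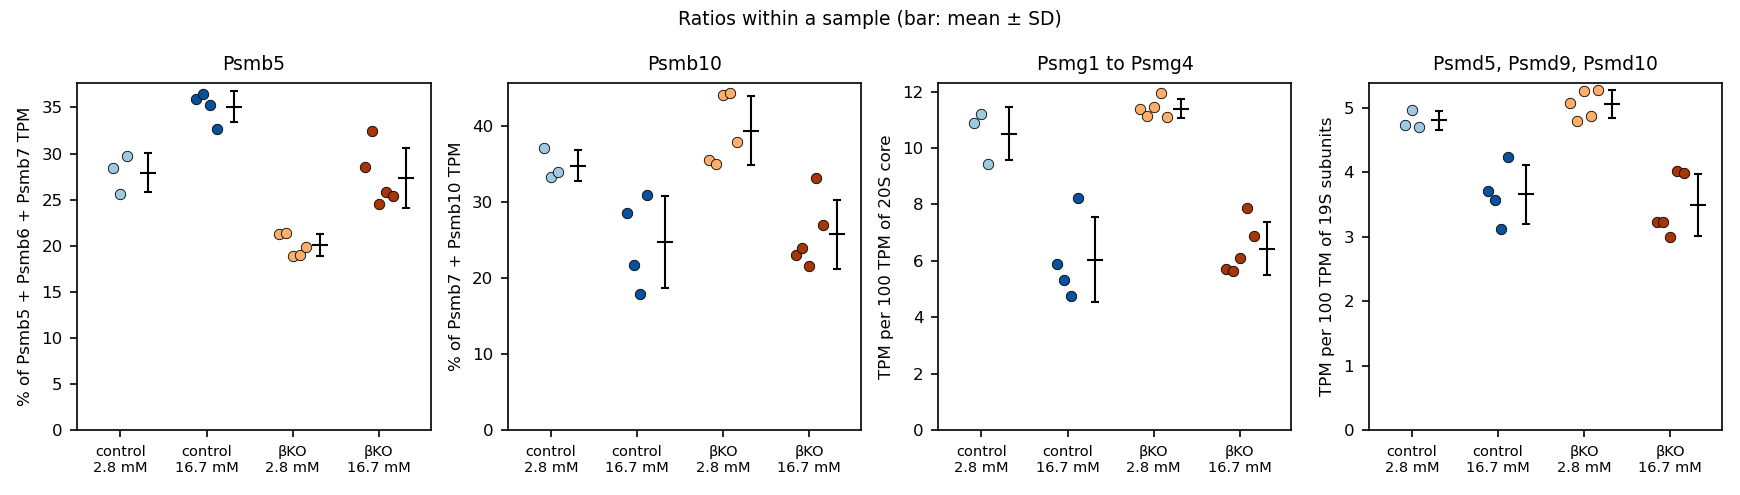
Ratios of TPM within each sample of the 4 groups, with the mean and SD beside the points: *Psmb5* as a percentage of the 3 constitutive catalytic subunits, *Psmb10* as a percentage of *Psmb7* and *Psmb10*, the core assembly chaperones per 100 TPM of the core and the base assembly chaperones per 100 TPM of 19S subunits. The share of *Psmb5* is lower in *Pcbp2* βKO than in control cells at each glucose concentration, and the chaperone ratios are lower at 16.7 mM.

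Markers of other cells moved with glucose as well, and some of their sums differed with genotype. Between the genotypes, edgeR called 0 of the α, δ, PP and proliferation markers at either concentration. DESeq2 called the PP marker, higher in *Pcbp2* βKO cells at 2.8 mM. All 5 α, 3 δ and 6 proliferation markers and the PP marker were above 0 at both concentrations. At 2.8 mM their median log2 fold changes were 1.40 (α), 1.05 (δ), 0.48 (proliferation) and 1.55 (PP). Of the 6 macrophage markers, edgeR called 1, lower in *Pcbp2* βKO cells at 2.8 mM. The other 5 were above 0 there, and the median log2 fold change of the 6 was 0.78. At an unadjusted p under 0.05 there were 2 α, 2 δ and 1 PP marker at 2.8 mM, and 1 α, 1 δ, 1 macrophage and 5 proliferation markers at 16.7 mM. Summed over 5 α cell markers, levels were 691 to 2623 CPM in control cells at 2.8 mM, 538 to 1572 at 16.7 mM, 1570.1 to 9438 in *Pcbp2* βKO cells at 2.8 mM and 953 to 1812 at 16.7 mM, and 2 of the 5 fell with glucose in *Pcbp2* βKO cells while 1 rose. The 6 macrophage markers summed to 46.9 to 185 CPM in *Pcbp2* βKO cells at 2.8 mM and 21.4 to 111 CPM at 16.7 mM, with 5 of 6 lower and 1 higher. All 6 proliferation genes rose in *Pcbp2* βKO cells. They summed there to 4.07 to 12.8 CPM at 2.8 mM and 2.18 to 271 CPM at 16.7 mM, ranges that overlapped. In control cells the 6 genes summed to 3.99 to 5.93 and 8.18 to 62.2 CPM. All 6 were above 0 there with an unadjusted p under 0.05, while edgeR called 0 and DESeq2 called 3. The interaction contrast called 0 of them. Macrophage markers summed to 85.7 to 159 and 38.5 to 106 CPM in control cells, where edgeR called none and 5 of 6 had an unadjusted p under 0.05 (DESeq2 called 0, limma on TPM 3). The 3 δ cell markers summed to 251 to 390 CPM at 2.8 mM and 147 to 335 CPM at 16.7 mM in control cells, with 1 called lower, and to 480.4 to 1316 and 198 to 565 CPM in *Pcbp2* βKO cells, with 2 called lower. The PP cell marker was at 797 to 835 and 224 to 631 CPM in control cells, where it was not called, and at 992 to 5112 and 290.3 to 1142 CPM in *Pcbp2* βKO cells, where it fell. The β cell markers summed to 119043 to 123222 CPM at 2.8 mM and 272015 to 526064 CPM at 16.7 mM in control cells, where 6 of 10 rose. In *Pcbp2* βKO cells they summed to 67334 to 97381 and 359038 to 475307 CPM, and 8 of 10 rose. Their part in the results on the proteasome genes was not tested, and in sorted bulk samples fewer cells of a type and less RNA per cell cannot be told apart.

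The comparison of *Pcbp2* βKO with control cells asks which of these genes differ in level between the genotypes. A single member, *Psmb5*, was called, and it was lower at both glucose concentrations. *Psmb5* encodes β5, the core subunit with chymotrypsin-like activity, which is the main target of proteasome inhibitors such as bortezomib. This 1 member is 2.08% of the 48 tested, which is near the share of all genes called lower. At 2.8 mM, 1.78% of all genes were called lower and 0.255% higher, and at 16.7 mM 1.42% and 0.29%. The members' median log2 fold change was −0.12 at 2.8 mM, with 35 of 48 below 0, and −0.11 at 16.7 mM, with 38 of 48 below 0. All genes had medians of 0.03 and 0.01, with 46.6% and 48.6% below 0. No member was called higher by edgeR at either concentration, and at an unadjusted p under 0.05 there were 6 members in all at 2.8 mM and 1 at 16.7 mM.

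At 2.8 mM, *Psmb5* was at 119, 114 and 104 CPM in control cells and at 68.5, 71.4, 50.4, 55.0 and 65.0 CPM in *Pcbp2* βKO cells. The groups did not overlap, and *Psmb5* fell by 0.86 ± 0.18 on the log2 scale (adjusted p = 0.0155). At 16.7 mM it was at 189, 152, 164 and 105 CPM in control cells and at 109.6, 116, 84.7, 76.9 and 72.8 CPM in *Pcbp2* βKO cells, a fall by 0.73 ± 0.17 (adjusted p = 0.034). Here control replicate 4 lay below 2 of the *Pcbp2* βKO samples. The comparisons at the 2 concentrations share no sample but may not be independent. Across glucose, all 3 same-numbered pairs of control samples and all 5 of *Pcbp2* βKO samples correlated best with their own number. Both comparisons also came from 1 fit. At 2.8 mM, the summed β cell markers were at 67334 to 97381 CPM in *Pcbp2* βKO cells against 119043 to 123222 CPM in control cells, with 2 of 10 called lower, and their part in the result on *Psmb5* was not tested.

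The call of *Psmb5* rests on few samples, although its sign did not. At 2.8 mM, the log2 fold change was between −0.91 and −0.79 in the fits that left out 1 sample, and the call was lost without control replicate 1 (adjusted p = 0.077) and without control replicate 2 (adjusted p = 0.057). At 16.7 mM it was between −0.89 and −0.61, and the call was lost in 6 of 9 such fits, those without control replicates 1, 2 or 3 or *Pcbp2* βKO replicates 3, 4 or 5, with adjusted p from 0.0745 to 0.127. The call was also lost with the replicate number as a block at 2.8 mM (−0.84, adjusted p = 0.111) and with only the groups compared in the fit at 16.7 mM (−0.73, adjusted p = 0.130). Without the 3 libraries that stood apart, *Psmb5* was called at both concentrations. DESeq2 and limma on log2(TPM + 1) also called it at both.

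*Psmb5* made up 27.9% ± 2.13 (SD, n = 3) of the summed TPM of *Psmb5*, *Psmb6* and *Psmb7* in control cells at 2.8 mM and 20.1% ± 1.22 (n = 5) in *Pcbp2* βKO cells. At 16.7 mM the shares were 35.1% ± 1.66 (n = 4) and 27.3% ± 3.22 (n = 5). The control samples were all above the *Pcbp2* βKO samples at both concentrations, at 25.6% to 29.7% against 18.8% to 21.4% and at 32.7% to 36.5% against 24.5% to 32.4%. Within each genotype, the share was also higher at 16.7 mM than at 2.8 mM in every sample. On the TMM scale, the gene's own glucose response was 0.44 ± 0.20 in control cells (adjusted p = 0.15). It was 0.57 ± 0.16 in *Pcbp2* βKO cells (adjusted p = 0.0128), just under the fold limit. In TPM the direction was the opposite. *Psmb5* went from 156 ± 7.11 to 118 ± 12.8 TPM (SD) in control cells and from 94.9 ± 12.2 to 68.7 ± 13.7 TPM in *Pcbp2* βKO cells.

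**Figure D4:**
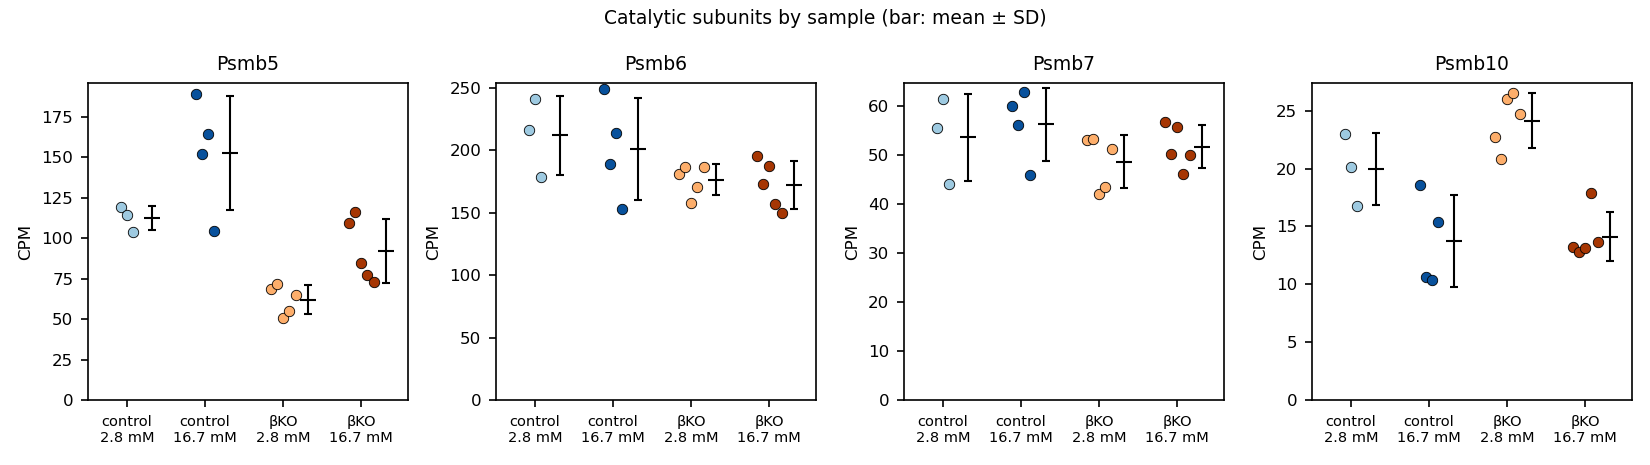
CPM (y axis) of the constitutive catalytic subunits *Psmb5*, *Psmb6* and *Psmb7* and of the induced subunit *Psmb10* in each sample of the 4 groups, with the mean and SD beside the points. For *Psmb5*, the *Pcbp2* βKO samples at 2.8 mM (50.4 to 71.4 CPM) lie below all control samples (104 to 119 CPM), and at 16.7 mM 1 control sample lies among the *Pcbp2* βKO samples.

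The partners of *Psmb5* in the β ring were not called. The log2 fold change of *Psmb6* was −0.26 ± 0.15 at 2.8 mM (adjusted p = 0.50) and −0.22 ± 0.14 at 16.7 mM (adjusted p = 0.59), and that of *Psmb7* −0.14 ± 0.14 (adjusted p = 0.75) and −0.12 ± 0.13 (adjusted p = 0.80). Of the 14 constitutive core subunits, 13 were below 0 and 13 within 0.3 of 0 at each concentration. The assembly chaperones lay between −0.24 and 0.12 at 2.8 mM and between −0.21 and 0.05 at 16.7 mM, the activators between −0.16 and 0.48 and between −0.22 and 0.19, and *Psmf1* at −0.14 ± 0.11 and −0.06 ± 0.10, and none of them was called. *Psmb10* was at 0.27 ± 0.19 and 0.04 ± 0.17. The member with the next smallest adjusted p was the ATPase *Psmc2* at 2.8 mM (−0.41 ± 0.12, adjusted p = 0.10) and *Psma5* at 16.7 mM (−0.30 ± 0.14, adjusted p = 0.415).

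**Figure D5:**
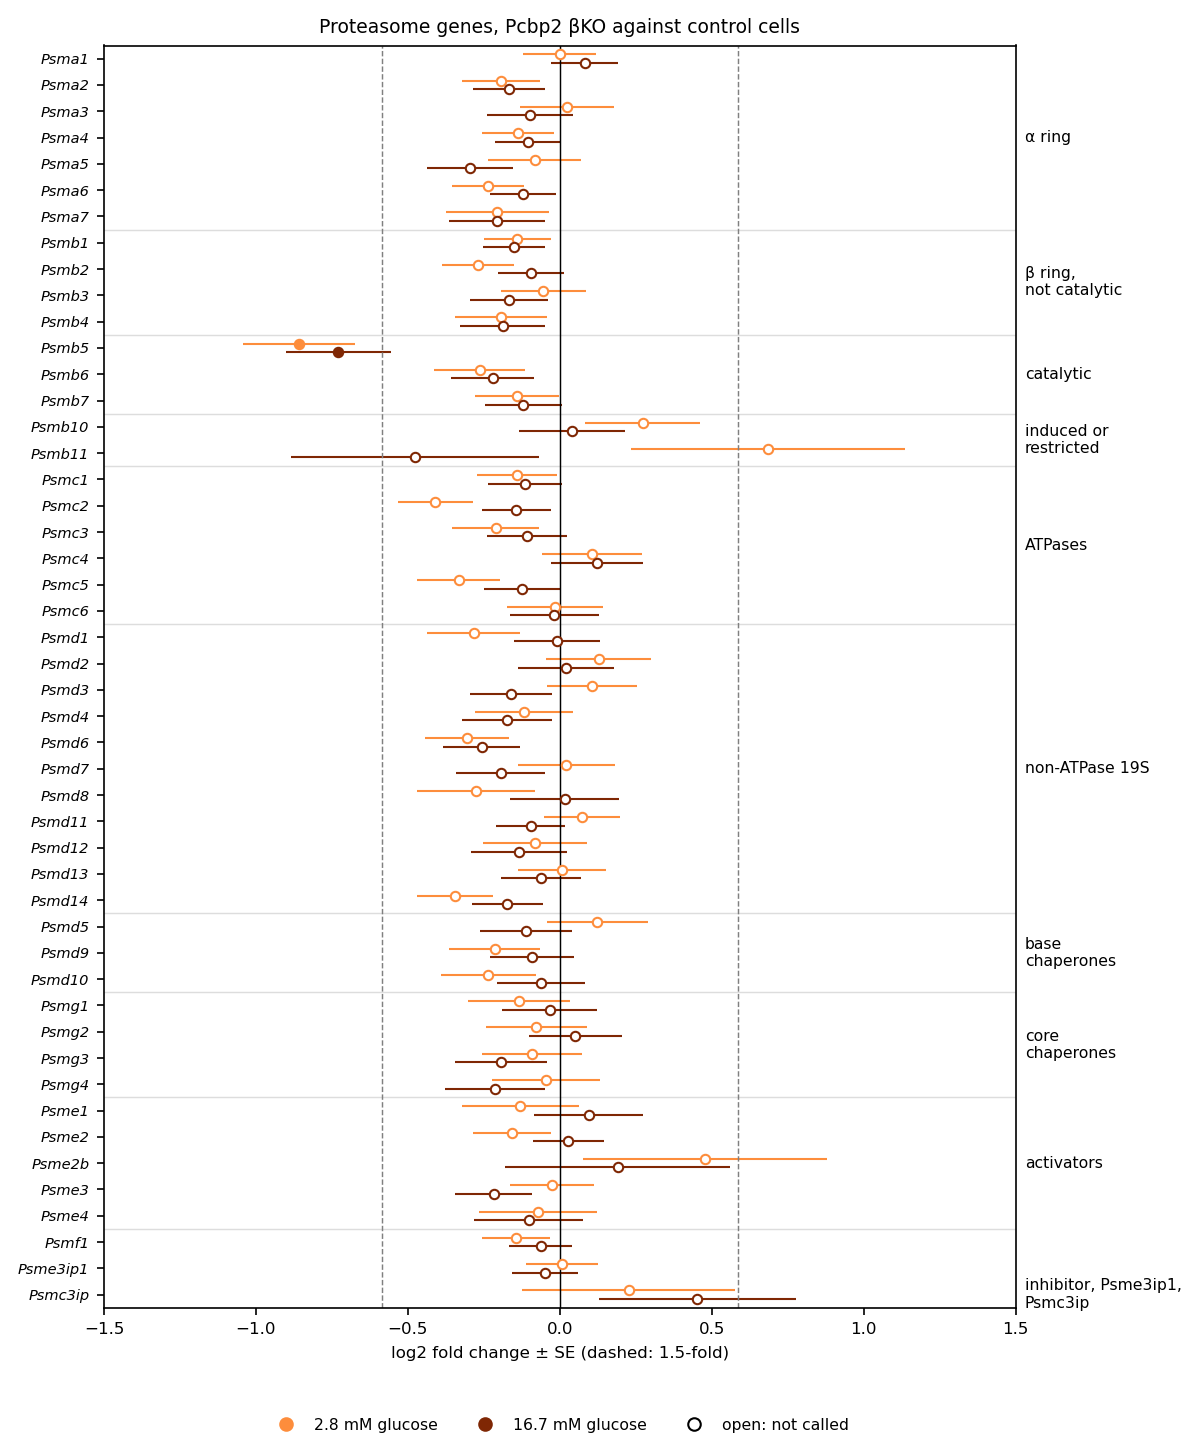
Log2 fold change (x axis, with SE) of the 48 tested proteasome genes in *Pcbp2* βKO against control cells at 2.8 mM (orange) and 16.7 mM glucose (brown), by role; filled points passed the test and dashed lines mark 1.5-fold. *Psmb5* alone passed, at −0.86 and −0.73, and most other members lie close to and on the left of 0.

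No difference in glucose response between the genotypes was detected for any member, in a contrast that called 1 of the 22784 genes. In the interaction contrast edgeR called none of the 48 members, none had an unadjusted p under 0.05, and DESeq2 and limma called none, where 0.00439% of all genes were called. The smallest p among the members were those of *Psmb11* (−1.16 ± 0.61), *Psmc2* (0.27 ± 0.17) and *Psmd3* (−0.27 ± 0.20), with adjusted p near 1. The interaction estimate was 0.10 ± 0.23 for *Psmg1* and 0.13 ± 0.25 for *Psmb5*.

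*Psmb5* lies on chromosome 14 (54850776 to 54855481, minus strand, GRCm39) and *Psmb6* on chromosome 11 (70416183 to 70418684, plus strand). Almost all *Psmb5* counts, 99.0% to 99.98%, were assigned to a single transcript of 899 nt, so that its gene level is that of 1 mRNA. RefSeq promoter sequences (GRCm38.p6) were at hand for 41 of the 49 members. The 250 bases before the start of *Psmb5*, the member lower in *Pcbp2* βKO cells, and of *Psmb6*, a catalytic subunit that was not called, are shown to set both promoters side by side, at chr14:54617996-54618245 on the minus strand and chr11:70525107-70525356 on the plus strand. Capitals mark a match to TGACNNNGC, the core of the antioxidant response element to which the bZIP factors *Nfe2l1* and *Nfe2l2* bind and through which proteasome genes are known to be induced.
Psmb5: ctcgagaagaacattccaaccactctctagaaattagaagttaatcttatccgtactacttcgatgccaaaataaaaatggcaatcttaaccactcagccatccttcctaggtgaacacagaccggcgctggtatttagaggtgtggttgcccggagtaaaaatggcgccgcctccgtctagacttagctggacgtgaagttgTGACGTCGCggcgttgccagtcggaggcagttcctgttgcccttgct
Psmb6: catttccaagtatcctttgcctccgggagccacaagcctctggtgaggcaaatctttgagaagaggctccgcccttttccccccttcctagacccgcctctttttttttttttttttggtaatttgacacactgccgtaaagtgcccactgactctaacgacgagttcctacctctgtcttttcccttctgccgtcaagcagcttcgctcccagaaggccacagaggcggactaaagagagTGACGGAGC

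Both promoters thus hold this match on the strand of the gene, at bases 47 to 39 before the start of *Psmb5* and at bases 9 to 1 before the start of *Psmb6*. Searched on both strands, TGACNNNGC was found in 11.1% of the 45 promoters of the 41 members (*Psmb5*, *Psmb6*, *Psmc6*, *Psmd9* and *Psmd12*) and in 10.2% of all 32851 promoters in the table. CCAAT, the box bound by NF-Y, was in 33.3% and 33.8%. GGCGGG, a GC box, was in 62.2% of the members' promoters, *Psmg1* and *Psmg4* included, and in 32.5% of all promoters. In *Psmd9* the GC box overlaps the TGACNNNGC match. These are matches of letters and no measured binding.

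The other genes of the pathway were described by lists chosen with earlier results known. Their calls with glucose stand beside 7.15% of all genes higher and 6.69% lower in control cells, and 13.4% and 10.4% in *Pcbp2* βKO cells. Of 10 tested proteasome genes with other symbols, 1 rose in control cells, *Ube3c*, a ubiquitin ligase that binds the proteasome. *Ube3c* was at 60.8, 39.9 and 65.7 CPM at 2.8 mM and at 113, 98.0, 119 and 100.05 CPM at 16.7 mM, and it rose by 0.95 ± 0.19 (adjusted p = 0.0039), and by 1.501 ± 0.16 in *Pcbp2* βKO cells (adjusted p = 6.6e-06). On the TPM scale it was at 0.17 and 0.43 and was not called. *Zfand5*, which encodes a proteasome-binding zinc finger protein, fell in *Pcbp2* βKO cells by 0.91 ± 0.25 (adjusted p = 0.010). *Pomp*, a chaperone of the maturing core, was at 0.17 ± 0.14 and 0.13 ± 0.12 and was not called, and neither were the ubiquitin receptor *Adrm1* (0.25 ± 0.20 and −0.01 ± 0.17) and the deubiquitinase *Usp14* (−0.04 ± 0.13 and −0.05 ± 0.10).

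Of the 8 genes of p97 and its cofactors, which extract ubiquitinated proteins from membranes and complexes, 1 rose and 2 fell in each genotype. Among all genes, 7.15% rose and 6.69% fell in control cells, and 13.4% and 10.4% in *Pcbp2* βKO cells. *Vcp*, which encodes p97, was at 467, 356 and 435 CPM in control cells at 2.8 mM and at 921, 717, 913 and 585 CPM at 16.7 mM, and it rose by 0.90 ± 0.18 (adjusted p = 0.0031), and by 1.11 ± 0.15 in *Pcbp2* βKO cells (adjusted p = 3.1e-05). On the TPM scale *Vcp* was at 0.09 and 0.06 and was not called. The cofactors *Ubxn1* and *Faf1* fell by 1.16 ± 0.18 and 1.04 ± 0.23 in control cells and by 1.12 ± 0.15 and 1.30 ± 0.19 in *Pcbp2* βKO cells.

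*Rps27a*, which encodes a ribosomal protein fused to ubiquitin, fell by 1.11 ± 0.19 in control cells and by 1.23 ± 0.16 in *Pcbp2* βKO cells. The ubiquitin-activating enzyme *Uba1* rose on the TMM scale in control cells by 0.63 ± 0.17 (adjusted p = 0.015), against −0.18 with TPM. Of the 6 shuttle factors, *Ubqln2* rose in *Pcbp2* βKO cells by 0.64 ± 0.20 (adjusted p = 0.021), against −0.22 with TPM, and edgeR called none in control cells (3 at an unadjusted p under 0.05, 1 by DESeq2, 3 by limma on TPM).

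Of 8 genes for the transcriptional control of proteasome genes, edgeR and DESeq2 called none in control cells (1 at an unadjusted p under 0.05, 6 by limma on TPM) and 2 fell in *Pcbp2* βKO cells, *Nfyb* by 0.67 ± 0.15 (adjusted p = 0.0029) and *Hsf1* by 0.69 ± 0.16 (adjusted p = 0.0029). *Nfe2l1* was at −0.33 ± 0.16 (adjusted p = 0.17) in control cells and at −0.55 ± 0.13 (adjusted p = 0.0038) in *Pcbp2* βKO cells, within the fold limit. Of 10 interferon response genes, which rise with the immunoproteasome in inflamed islets, *Ifit1* alone was called by edgeR in *Pcbp2* βKO cells. It fell by 1.04 ± 0.29 (adjusted p = 0.010). DESeq2 called 2 of the 10 there and limma on TPM 5, and 5 were above and 5 below 0 (median −0.06). In control cells edgeR and DESeq2 called none (0 at an unadjusted p under 0.05, 3 by limma on TPM). Between the genotypes and in the interaction, edgeR, DESeq2 and limma called no gene of these 6 lists, with 0 to 3 genes of a list at an unadjusted p under 0.05.

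Transcript shares were looked at where much of a member's count lay outside protein-coding transcripts, as descriptions with no test. *Psma3-201*, annotated as a target of nonsense-mediated decay, took 35.6% ± 3.77 of the *Psma3* counts in control cells at 2.8 mM and 24.5% ± 4.27 at 16.7 mM, and 38.6% ± 2.00 and 23.0% ± 4.38 in *Pcbp2* βKO cells. The shares at 16.7 mM were below all those at 2.8 mM in each genotype. The gene as a whole was not called in either comparison. *Psmd1-204*, also annotated for nonsense-mediated decay, took 29.0% ± 6.96 and 25.5% ± 7.15 of *Psmd1* in control cells, and these ranges overlapped.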

How the data were processed

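Polyadenylated RNA of sorted β cells was sequenced in read pairs, which the authors pseudoaligned to the GRCm39 mouse transcriptome with Kallisto (version not given in the sources used here). They deposited, per sample, estimated counts per transcript, not normalized between samples, TPM scaled to effective transcript length, and the transcript lengths themselves (other). The authors also state tximport, edgeR and a batch term, whose levels are not in the labels, so no batch term was fitted here.

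Estimated counts and TPM were summed per gene, and counts were rounded. Genes were filtered with filterByExpr and fitted in edgeR 4.0.16 (R 4.3.3) with TMM factors, the 4 group means over all 17 samples, and the quasi-likelihood F test. P values were Benjamini-Hochberg adjusted over 22784 genes. Calls needed an adjusted p under 0.05 together with a change of more than 1.5-fold. Each standard error was derived from the log2 fold change and its F value. CPM were computed with TMM factors. Alternatives used DESeq2 1.42.0, RLE factors, library totals, no filter, limma 3.58.1 on log2(TPM + 1), transcript length offsets, a replicate block, fewer samples and no fold limit. All tools were tested on simulated data.

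Replicate numbers of control samples at 2.8 and 16.7 mM deviated together (correlations across genes of 0.199, 0.123 and 0.258, each over 0.1). The main fit was nevertheless unpaired, so the standard errors and p values given use no pairing. The replicate number entered as a block only in an alternative fit, and the labels do not say what a number marks. For glucose in control cells, the block did not change the count of calls by over 1.5 times.

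Members, roles and gene lists were chosen with earlier results of these data known. Named were, per comparison, all called members, the 3 with the smallest adjusted p where none was called, the catalytic subunits, activators, chaperones and inhibitor, the 3 highest and lowest by TPM, members failing the filter, and called genes of the lists, of which some are not reported here; further genes were named after their values were seen. Promoters came from RefSeq on GRCm38.p6, gene positions from GENCODE on GRCm39.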

Additional observations from a re-analysis of the deposited data

Results flagged for a closer look

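Among the 15 members called in any comparison, 45 groups of 4 or 5 samples were searched for a sample apart from the others, by its gap to the nearest sample as a share of the group's range of log2 CPM. Chance flags about 1 in 20 groups, and 3 were found. *Psmb10* was at 17.9 CPM in *Pcbp2* βKO replicate 4 at 16.7 mM (share 0.796, limit 0.71), *Psmd4* at 103 CPM in control replicate 1 at 16.7 mM (share 0.880, limit 0.829) and *Psmd5* at 177 CPM in *Pcbp2* βKO replicate 5 at 2.8 mM (share 0.748, limit 0.71). Without that sample, *Psmd5* was under the fold limit in the glucose comparison of *Pcbp2* βKO cells, as given above. *Psmb10* and *Psmd4* kept their calls in *Pcbp2* βKO and control cells, respectively, without these samples.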

How the results depend on the processing

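For glucose in control cells (11 members called), the count was 18 with library totals, 39 with limma on log2(TPM + 1) and 7 with only the groups compared, and it ranged from 4 to 13 when 1 sample was left out. For glucose in *Pcbp2* βKO cells (10 called), it was 22, 41 and, without the fold limit, 18, and from 9 to 12 without 1 sample. For the knockout, *Psmb5* was the only call, and its count of 1 went to 0 at 16.7 mM with only the groups compared (adjusted p = 0.13) and at 2.8 mM with the replicate block (adjusted p = 0.11), and ranged from 0 to 1 without 1 sample at each concentration. The direction was reversed with limma on log2(TPM + 1) for *Psmd1* (−0.16 in control and −0.10 in *Pcbp2* βKO cells), *Psma5* (−0.17 in control cells) and *Psme4* (−0.26 in *Pcbp2* βKO cells), and no other called member changed sign in the alternatives run. The cause was not tested. DESeq2, RLE factors, no filter, transcript length offsets and leaving out the 3 libraries that stood apart kept every count within 1.5 times.

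With the replicate block, 12 and 9 members were called for glucose in control and *Pcbp2* βKO cells, 1 for the knockout at 16.7 mM and 0 for the interaction. Outside the control samples, the labels tie same-numbered samples by the number alone, but some of these pairs also correlated over 0.1. These were 2 of 3 pairs between genotypes at 2.8 mM, 2 of 4 at 16.7 mM and 3 of 5 pairs of *Pcbp2* βKO samples. At 2.8 mM, each of the 3 same-numbered pairs of control and *Pcbp2* βKO samples, and each of the 5 pairs of *Pcbp2* βKO samples, correlated best with its own number, as did 2 of 4 between genotypes at 16.7 mM. The study's batch term could not be fitted, and *Psmb11*, *Psme2b* and *Psma8* had too few reads to show a change of the size called here.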
